A study of Mus musculus with 5 samples.

Results

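Serpins are a family of protease inhibitors that share 1 fold, and 7 of their genes were followed through single-cell RNA profiles of 4T1 mouse mammary tumors: Serpinb9, Serpinb9b, Serpinb6a, Serpinb6b, Serpinb1a, Serpine2 and Serpinf1. They were taken by symbol from the gene lists of the libraries, and each symbol matched 1 gene. They are 7 of the 62 genes named Serpin among 32285 genes in the T cell libraries, and 7 of 68 among 54987 in the whole-tumor libraries. Their levels were read in 6 lineage gates (T, NK, neutrophil, macrophage, fibroblast and cancer) of each library.

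An inhibitory serpin offers its target protease a bait loop, is cut, and traps the enzyme in a covalent complex that is then cleared. Clade B serpins stay inside the cell, and in cytotoxic lymphocytes and myeloid cells they guard the cell against proteases leaking from its own granules. Serpinb9 inhibits granzyme B, Serpinb6b inhibits granzyme A, and Serpinb1a and Serpinb6a inhibit neutrophil granule proteases such as cathepsin G. Serpine2 (protease nexin-1) is secreted and inhibits thrombin and plasminogen activators, and Serpinf1 (pigment epithelium-derived factor, PEDF) is secreted and does not inhibit proteases.

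4T1, a BALB/c mammary carcinoma line used as a model of triple negative breast cancer, was grown in mammary fat pads of mice of that strain. The mice are labelled 12 weeks old in all 5 libraries. Treated mice received doxorubicin (DOX) intravenously at 5 mg/kg in 3 doses given 3 days apart, and the control received saline. Treated tumors were classed by their growth under DOX into sensitive and resistant. There were 5 libraries, 1 per group: whole tumor from control, sensitive and resistant tumors, and T cell preparations from sensitive and resistant tumors. The T cells were enriched by magnetic depletion of other immune cells and of cancer cells, and each of these libraries pools 3 tumors. With 1 library per group there was no replicate check, so no test between groups was made, every interval is a 95% interval for counting error only, and a gene was called past 2-fold at a ratio of at least 2 or at most 0.5 on at least 50 molecules. The whole-tumor resistant library carries the label resistant in its title and sensitivity field but sensitive in its source field, and the control library's source field also names sensitive tumors. Both were grouped by title, and results that rest on them are those of the libraries so titled.

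Each molecule is a UMI (unique molecular identifier) counted at the 3′ end of a transcript, and a level is the gene's share of all UMIs summed over the cells of a gate, in CPM, of which 10000 make 1% of the UMIs. The T cell libraries held 31690845 UMIs in 3949 barcodes (sensitive) and 35908799 in 6116 (resistant), of which 3560 and 3250 passed the filters and 3303 and 3044 fell into a gate. The median mitochondrial share before filtering was 2.47% and 8.95% respectively. The T gate had 1961 and 1888 cells, the fibroblast gate 830 and 621, and the other gates 29 to 189. The whole-tumor libraries held 275 to 501 barcodes and 537293 to 1731940 UMIs, and most of their cells were neutrophils. The sensitive one had 2 T cells and 4 cancer cells. T cells made up 12.3% of filtered cells under the title control, 0.743% under sensitive and 4.94% under resistant. The paper orders them otherwise, with its largest T cell share for sensitive tumors and a smaller one for control. Whether titles were exchanged was not tested, so every whole-tumor comparison depends on the titles. All 8 markers of each gate were detected in the T, neutrophil, macrophage, fibroblast and cancer gates of the T cell libraries, and 7 of 8 in the NK gate. The T cell libraries shared 31 barcodes, and other pairs of libraries 0 to 4. Fibroblasts made up the second gate in size although the preparation aimed at T cells. Where a pair of values is given below for the T cell libraries, the sensitive one comes first.

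Serpinb1a, Serpinb6b, Serpinb9, Serpinb9b and Serpinb6a lie in this order on chromosome 13 within 1160.7 kb (GRCm38). Serpinb9 (ENSMUSG00000045827) spans chr13:33003250-33017957 and Serpinb9b (ENSMUSG00000021403) chr13:33027416-33041884, both on the plus strand. Serpinb6b (ENSMUSG00000042842) spans chr13:32965209-32979067 on the plus strand. Serpinb6a (ENSMUSG00000060147) spans chr13:33917918-34002794 and Serpinb1a (ENSMUSG00000044734) chr13:32842092-32851185, both on the minus strand. Serpine2 (ENSMUSG00000026249) is at chr1:79794197-79861180 and Serpinf1 (ENSMUSG00000000753) at chr11:75409769-75422701, both on the minus strand.

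The coding sequences of Serpinb9 and Serpinb9b were identical at 967 of 1119 aligned bases (86.4%), and those of Serpinb6a and Serpinb6b at 974 of 1128 (86.3%), against 69.1% between Serpinb9 and Serpinb6b. Because counting was at the 3′ end, 50-base windows in the last 500 bases of each transcript were compared with all other genes. None of the 453 windows of Serpinb9 and 13 of 902 (1.44%) of Serpinb9b had a match in another gene. The shares were 1.22% for Serpinb6a, 5.47% for Serpinb6b (in Gm8436 and Serpinb6c) and 4.59% for Serpinb1a (in Serpinb1b and Serpinb1c), and 0 for Serpine2 and Serpinf1. Reads from the shared stretches could not be placed on 1 copy, so the levels of those 4 genes are uncertain. A share of windows is not a share of reads, so it does not give the size of this uncertainty.

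The sequences before the starts of the neighbours Serpinb9 and Serpinb9b are shown because these copies differed in some gates. In the T cell libraries both were detected in T cells, NK cells and fibroblasts, but cancer cells and macrophages held UMIs of Serpinb9 alone. The sequences are from a table of RefSeq promoters (GRCm38.p6) in which 6 of the 7 genes, all but Serpinb1a, were matched. Each is the 250 bases before the RefSeq start, which for Serpinb9 lies inside the gene span given above and for Serpinb9b 2 bases before it, on the plus strand, at chr13:33004291-33004540 for Serpinb9 and chr13:33027164-33027413 for Serpinb9b. The first 20 bases after the RefSeq start were found in a reference transcript of the same gene for 5 of the 6 matched genes but not for Serpinb9b, so its start is less certain in the comparison of the pair. The capitals mark in Serpinb9 the match to a motif of GAAA, any 2 bases and GAAA, read on the reverse strand, and in Serpinb9b the stretch aligned with it.
Serpinb9: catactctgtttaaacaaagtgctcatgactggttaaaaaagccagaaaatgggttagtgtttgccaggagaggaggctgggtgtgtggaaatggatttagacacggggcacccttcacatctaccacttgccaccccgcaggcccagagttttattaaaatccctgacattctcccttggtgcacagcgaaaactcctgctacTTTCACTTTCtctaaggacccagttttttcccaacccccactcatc
Serpinb9b: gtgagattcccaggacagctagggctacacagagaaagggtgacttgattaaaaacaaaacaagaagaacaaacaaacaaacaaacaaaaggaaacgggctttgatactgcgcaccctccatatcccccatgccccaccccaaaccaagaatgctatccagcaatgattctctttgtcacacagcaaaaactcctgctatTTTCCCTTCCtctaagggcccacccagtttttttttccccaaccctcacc

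The windows of the pair were identical at 154 of 226 aligned bases (68.1%), and the capital stretches at 8 of 10. Of 7 motifs searched on both strands, Serpinb9 held this one alone, the core of interferon-stimulated response elements (ISRE), which was found in 2.98% of 32851 promoters, starting 46 bases before its start. Serpinb9b held none of them. The others were TATAAA (in 12.4% of promoters), CCAAT (33.8%), GGGCGG (32.7%), TGACTCA (4.46%), the consensus kappa B site (0.14%) and TTCNNNGAA (7.02%). Serpinb6a held GGGCGG at 2 places and an overlapping TTCNNNGAA and ISRE core, Serpinb6b held GGGCGG once, Serpine2 held it at 6 places and Serpinf1 held CCAAT at 3. A match is a description of letters in the window and was not tied to any level measured here.

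Among the 6 gates of the T cell libraries each serpin was highest in either NK cells or fibroblasts. Serpinb9 and Serpinb6b were highest in the NK gate of both libraries, and Serpinb9b, Serpinb6a, Serpinb1a, Serpine2 and Serpinf1 in the fibroblast gate. Dendritic cells, too few for a comparison and left out of the 6 gates (18 and 34 cells), stood higher than NK cells for Serpinb6b in both libraries (723 and 577 CPM) and for Serpinb9 in the sensitive one (473 and 203 CPM). The highest of the 6 gates was the same in both libraries for 7 of 7 genes, where it was the same for 65.8% of 13522 genes. For 4 of 7 (Serpinb9, Serpinb6b, Serpine2 and Serpinf1) that gate was at least 2-fold over the next in both libraries, against 22.4% of all genes. Serpinb9b was the exception to a fixed top gate: with at least 3 markers per gate, with no cell filter or as a mean over cells, the NK gate came first in 1 or both libraries. The plot of levels by gate shows the 6 gates side by side.

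**Figure D1:**
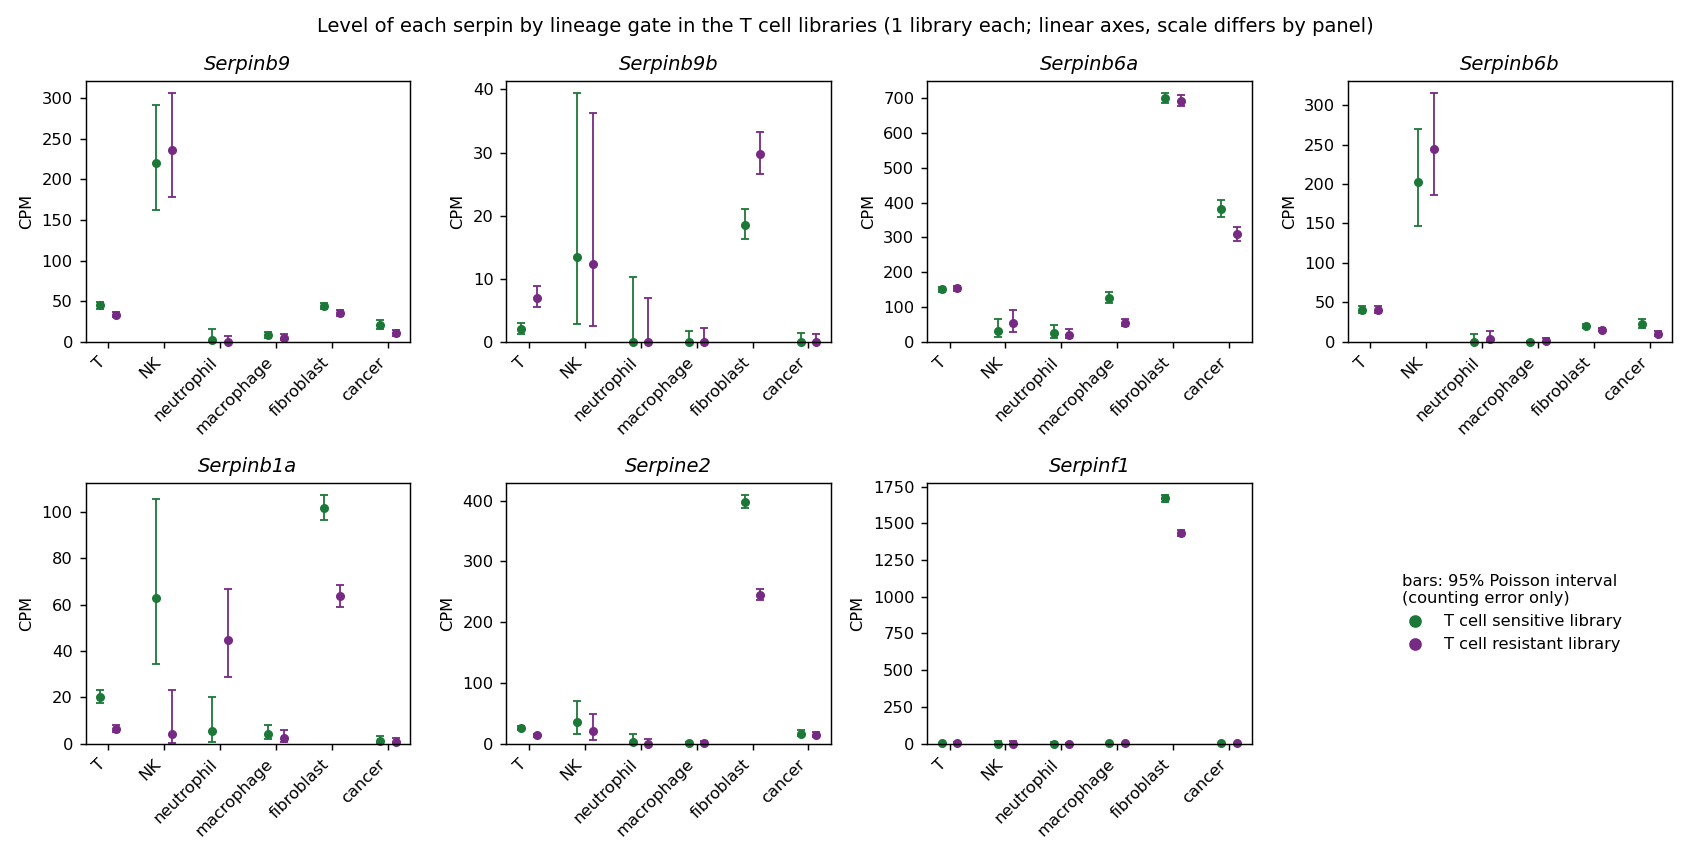
Level of each serpin (CPM, linear axes that start at 0 and differ in scale by panel) in the lineage gates of the T cell libraries, with points for the sensitive and resistant library and bars for the 95% Poisson interval of counting error. Of these gates Serpinb9 and Serpinb6b are highest in NK cells, at 202 to 244 CPM, and Serpinf1 reaches 1670 and 1433 CPM in the fibroblast gate and stays below 6 CPM elsewhere.

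Serpinb9, the granzyme B inhibitor, stood in the NK gate at 220 CPM (163 to 291) with sensitive and 236 CPM (179 to 305) with resistant tumors. These levels rest on 49 and 57 UMIs in 41 and 29 cells. The T gate followed with 44.8 CPM (40.8 to 49.1) and 33.3 CPM (30.0 to 36.9), and the fibroblast gate with 43.9 CPM (40.4 to 47.7) and 35.8 CPM (32.3 to 39.6). The intervals of T cells and fibroblasts overlapped in both libraries, while NK cells stood apart from both. The cancer gate had 20.7 and 10.8 CPM and the macrophage gate 7.87 and 5.20 CPM. In neutrophils 1 and 0 UMIs were counted, with upper limits of 15.6 and 6.88 CPM that lie above the macrophage levels. After each cell was thinned to 1000 UMIs, 3.65% and 2.23% of T gate cells had a Serpinb9 UMI (13.3% and 12.5% unthinned). None of 141 and 175 neutrophils had one after thinning. Counted as 3 cells of the total, this allows up to 2.13% and 1.71% of neutrophils to have a UMI at that depth, and sets no limit on the cells that express the gene. The median depths before thinning were 4000 and 4577 UMIs in the T gate and 2194 and 2511 in the neutrophil gate.

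Serpinb6b, the granzyme A inhibitor, was likewise highest in NK cells, with T cells second in both libraries. The NK gate had 202 CPM (147 to 270) and 244 CPM (186 to 315), and the T gate 40.9 CPM in both (37.1 to 45.1 and 37.2 to 44.9). The cancer gate had 22.6 and 10.1 CPM and the fibroblast gate 20.2 and 15.5 CPM. Macrophages held 0 and 3 UMIs and neutrophils 0 and 2. After thinning, 3.24% and 3.29% of T gate cells had a Serpinb6b UMI (12.5% and 12.1% unthinned).

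The remaining clade B genes had their own orders. Serpinb6a, a broadly expressed cytosolic inhibitor, had 700 CPM (686 to 714) and 693 CPM (677 to 709) in fibroblasts, 383 and 309 CPM in the cancer gate, 151 and 154 CPM in T cells and 25.3 and 20.5 CPM in neutrophils. It had a UMI in 13.2% and 11.1% of T gate cells (42.1% and 44.7% unthinned) and 50.1% and 48.2% of fibroblasts after thinning. Serpinb9b, the copy of Serpinb9, had 18.6 CPM (16.3 to 21.0) and 29.7 CPM (26.5 to 33.2) in fibroblasts and 1.98 CPM (1.21 to 3.06) and 7.03 CPM (5.55 to 8.78) in T cells. It had 3 UMIs in the NK gate of each library, where its interval overlapped that of fibroblasts, and 0 UMIs in neutrophils, macrophages and cancer cells of both. So the granzyme B inhibitor and its copy were each detected in T cells and fibroblasts, but cancer cells and macrophages held UMIs of Serpinb9 alone.

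Serpinb1a, an inhibitor of neutrophil elastase, cathepsin G and proteinase 3, was highest in fibroblasts, at 102 CPM (96.3 to 107) and 63.6 CPM (58.9 to 68.6). The NK gate had 62.8 CPM on 14 UMIs with sensitive tumors and 4.14 CPM on 1 UMI with resistant tumors. The T gate had 20.2 CPM (17.5 to 23.2) and 6.30 CPM (4.90 to 7.97). In neutrophils the order of the libraries was the other way round, with 2 UMIs (5.61 CPM) against 24 UMIs (44.7 CPM) from 3 cells of resistant tumors.

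Serpine2 and Serpinf1, the secreted serpins, were highest in fibroblasts. Serpine2 had 398 CPM (387 to 409) and 245 CPM (236 to 255) there, against 35.9 and 20.7 CPM in NK cells, on 8 and 5 UMIs, 25.5 CPM (22.5 to 28.8) and 13.6 CPM (11.5 to 16.0) in T cells and 16.3 and 14.7 CPM in cancer cells. Serpinf1 had 1670 and 1433 CPM in fibroblasts, where 67.8% and 66.9% of thinned cells had a UMI. In T cells it had 3.87 CPM (2.75 to 5.28) and 5.93 CPM (4.58 to 7.56), and in NK cells and neutrophils 0 UMIs.

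Free RNA from fibroblasts can place UMIs in other cells, so the T gate level was set against the fibroblast level. For 8 other fibroblast genes the T gate of the sensitive library held a median of 0.344% of the fibroblast level (0.288% to 2.49%), and that of the resistant library 0.256% (0.133% to 1.28%). Serpinf1 stood at 0.232% in the sensitive library, below the range, and at 0.414% in the resistant library, within it. Serpine2 stood at 6.40% and 5.55%, Serpinb9b at 10.7% and 23.7%, Serpinb1a at 19.9% and 9.90%, and Serpinb6a at 21.5% and 22.1%, all above the ranges. Serpinb9 was at 102% and 92.9% and Serpinb6b at 203% and 264%.

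Between T cells of sensitive and resistant tumors, 2 of the 7 serpins were past 2-fold, Serpinb1a higher and Serpinb9b lower in the sensitive library. Of all 10134 genes with at least 50 UMIs in this gate 4.49% were past it, 3.26% higher and 1.23% lower. The median ratio of sensitive over resistant over all these genes was 1.10 (log2 0.14), so ratios in the T gate are also given over that median.

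Serpinb1a had 204 UMIs in T cells of sensitive tumors against 69 in those of resistant tumors, a ratio of 3.21 (2.43 to 4.28), or 2.91 over the median. The share of T gate cells with a UMI after thinning was 2.36% against 0.584% (5.41% and 1.80% unthinned). Markers of other cells moved with it: the summed neutrophil list stood at 129 against 39.4 CPM in the T gate, and the fibroblast list at 87.5 and 45.5 CPM. Of these lists 6 of 8 and 8 of 8 neutrophil genes, and all 8 fibroblast genes in both libraries, had a UMI, and their part in the difference was not tested.

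Serpinb9b had 20 UMIs in T cells of sensitive tumors against 77 in those of resistant tumors, a ratio of 0.282 (0.163 to 0.466), or 0.255 over the median. They came from 12 and 26 cells, and the 5 cells with most UMIs held 65.0% and 50.6% of them. As a mean over cells, in which each cell weighs the same, the ratio was 0.544 and no longer past 2-fold.

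The other 5 genes were within 2-fold in T cells. Serpinb9 was 1.35 (1.17 to 1.55), or 1.22 over the median, and Serpine2 was 1.87 (1.53 to 2.31), or 1.70 over the median. Serpine2 passed 2-fold without a cell filter, at 2.46. The fibroblast list stood higher in the same library (above), and 5 cells held 46.7% and 33.6% of its UMIs. Serpinb6a was 0.982 (0.915 to 1.05), or 0.889 over the median, and Serpinb6b 1.00 (0.874 to 1.15), or 0.907 over the median. Both counting intervals lay inside 2-fold. Serpinf1 was 0.652 (0.427 to 0.984), or 0.590 over the median, but 35 of its 65 UMIs in the resistant library were in 1 cell, and without the top cell of each library the ratio was 1.34. The plot of ratios sets the T gate beside the others.

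**Figure D2:**
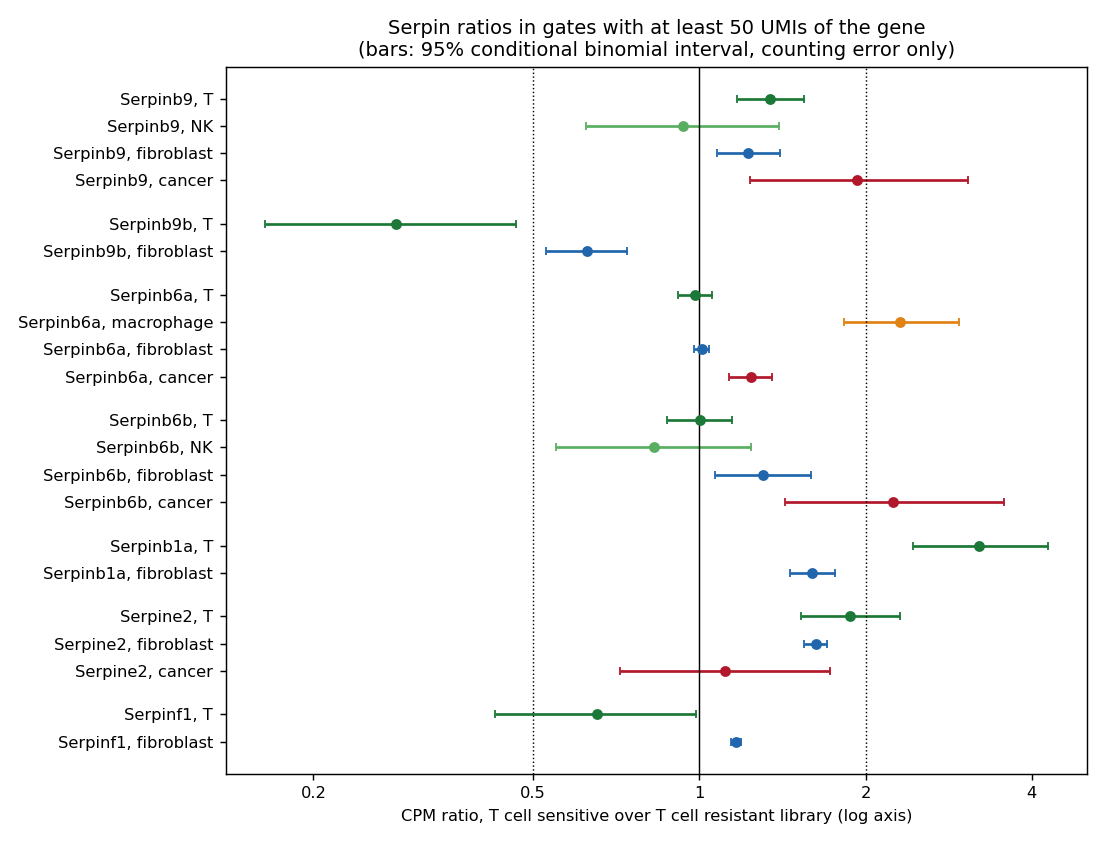
Ratio of the sensitive over the resistant T cell library (log axis) for each serpin with at least 50 UMIs in a gate, with bars for the exact 95% interval of counting error and lines at 2 and 0.5. In the T gate Serpinb1a at 3.21 lies above 2 and Serpinb9b at 0.282 below 0.5, and in fibroblasts all 7 genes lie between 0.625 and 1.62.

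In fibroblasts 0 of 7 serpins were past 2-fold, where 3.96% of 11277 genes were, and the median ratio of all genes was 1.06. Serpine2 at 1.62 (1.55 to 1.70) and Serpinb1a at 1.60 (1.46 to 1.76) were the highest of the 7 and Serpinb9b at 0.625 (0.527 to 0.741) the lowest. T cell markers and granzymes in the fibroblast gate lay on both sides. The summed T cell list stood at 28.4 and 67.0 CPM. Gzmc, Gzmd and Gzme had ratios of 0.210, 0.109 and 0.190, but Gzma had 1.73 (1.31 to 2.29) and Gzmb 1.35 (0.774 to 2.40). In the resistant library Gzmd and Gzme had 11.1 and 21.4 CPM there, against 80.1 and 68.5 CPM in the T gate. For 6 T cell genes this gate held a median of 1.23% of the T gate level (1.02% to 68.5%). Gzmd and Gzme stood above that median, and the source of their UMIs was not tested. The part of T cell RNA in the Serpinb9b value was not tested either. Serpinb6b was 1.30 (1.07 to 1.59), Serpinb9 1.23 (1.08 to 1.40), Serpinf1 1.16 (1.14 to 1.19) and Serpinb6a 1.01 (0.979 to 1.04). Serpinb1a and Serpine2 were above 1 and Serpinb9b below 1 in T cells and in fibroblasts alike, and the cells of both gates came from the same 2 libraries.

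In NK cells Serpinb9 was 0.933 (0.624 to 1.39) and Serpinb6b 0.828 (0.549 to 1.24), the 2 serpins with enough UMIs there, and 0 of 2 were past 2-fold beside 9.1% of 1296 genes. Neither kept its direction over the other settings, where Serpinb9 ran from 0.840 to 1.51, the latter with gating by marker UMIs, and Serpinb6b from 0.627 to 1.13. In macrophages 1 of 1 was past it, beside 2.88% of 6293 genes. This was Serpinb6a, with 274 UMIs (127 CPM) against 95 UMIs (54.9 CPM), a ratio of 2.31 (1.82 to 2.95). It was 1.97 when cells of up to 20% mitochondrial UMIs were kept. The summed fibroblast markers in this gate lay the other way, at 32.9 and 151 CPM. The cancer and endothelial lists lay the same way as Serpinb6a, at 59.8 and 32.9 CPM and at 36.1 and 24.3 CPM, with 1 and 0 of 8 cancer genes and 5 and 4 of 8 endothelial genes at 0, and their part was not tested. The difference was seen in macrophages with high C1q (129 against 55.2 CPM in 168 and 127 cells) and with low C1q (112 against 53.0 CPM in 21 and 18 cells), but the latter rests on 30 UMIs from 6 cells against 14 from 8, with 96.7% of the 30 in 5 cells. In the cancer gate 1 of 4 was past 2-fold, beside 2.19% of 7949 genes. Serpinb6b was 2.24 (1.43 to 3.57) on 61 and 31 UMIs, and 1.74 when cells were gated by marker UMIs. The summed dendritic markers in this gate were 292 and 197 CPM, from 2 of 8 genes, and their part was not tested. Serpinb9 was 1.93 (1.23 to 3.06) on 56 and 33 UMIs, and 1.25 as a mean over cells. Serpinb6a was 1.24 (1.13 to 1.35) and Serpine2 1.11 (0.717 to 1.72). In neutrophils no serpin reached 50 UMIs over both libraries, where 5.14% of 1847 genes were past 2-fold.

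Within the T gate each gene had its own distribution over T cell subsets. CD8 cells (a Cd8a or Cd8b1 UMI and none of Cd4) numbered 1342 and 1632, CD4 cells 183 and 45, and Foxp3 cells 98 and 36. Cells with a Trdc UMI, the constant region of the T cell receptor delta chain, and with none of Cd4, Cd8a or Cd8b1 numbered 74 and 17.

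Serpinb1a was concentrated in the Trdc cells, as the plot of T cell subsets shows. There it had 373 CPM on 102 UMIs and 212 CPM on 15 UMIs, against 10.4 and 4.96 CPM in the rest of the T gate. The ratios of Trdc cells over the rest were 35.9 (27.0 to 47.7) and 42.8 (22.4 to 77.0). So 102 of 204 Serpinb1a UMIs of the sensitive T gate lay in 74 of 1961 cells. Without these cells the sensitive over resistant ratio was 2.10 (1.49 to 2.97), and within them it was 1.76 (1.02 to 3.26). CD8 cells had 8.33 and 3.63 CPM, a ratio of 2.30 (1.48 to 3.61).

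**Figure D3:**
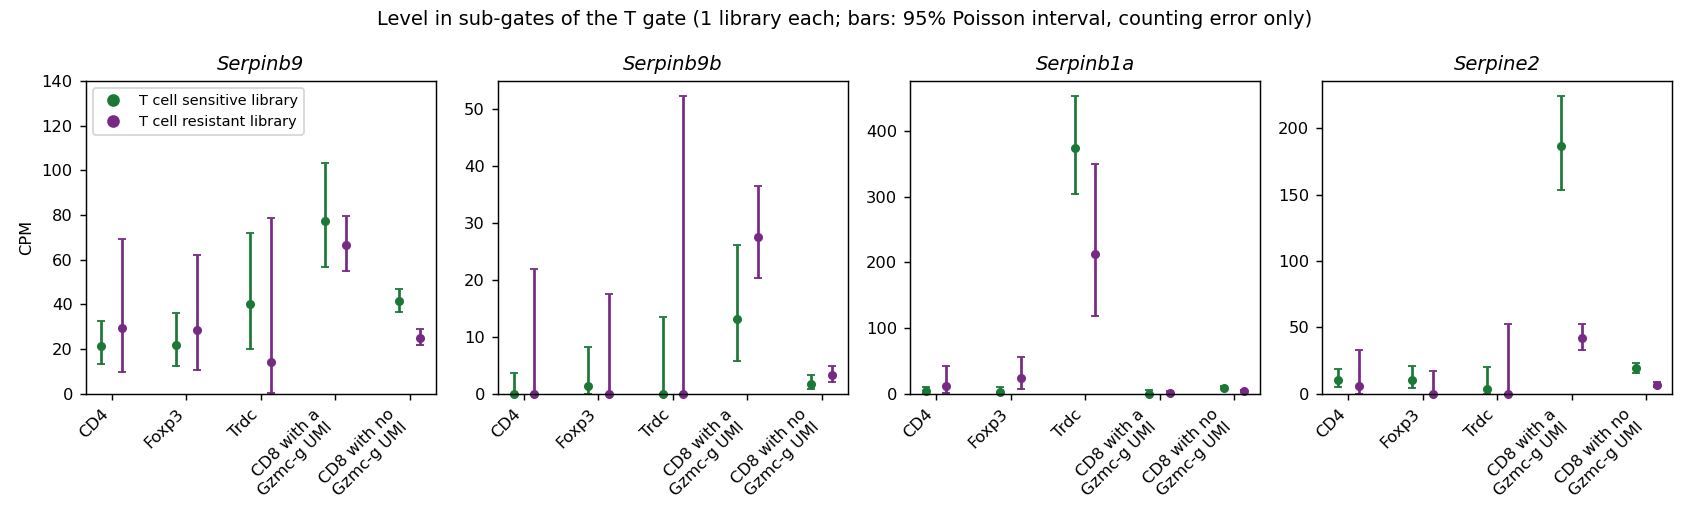
Level (CPM, linear axes that start at 0) of Serpinb9, Serpinb9b, Serpinb1a and Serpine2 in subsets of the T gate of the sensitive and resistant T cell libraries, with bars for the 95% Poisson interval of counting error. Serpinb1a stands at 373 and 212 CPM in Trdc cells and near 0 in CD8 cells with a Gzmc to Gzmg UMI, where Serpinb9, Serpinb9b and Serpine2 are highest.

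Serpinb9 was higher in T cells that held UMIs of the protease it inhibits. With a Gzmb UMI the level was 57.1 and 50.6 CPM, and without one 35.3 and 19.2 CPM. The ratios were 1.62 (1.34 to 1.96) and 2.64 (2.11 to 3.32). Among cells without a Gzmb UMI Serpinb9 was 1.84 (1.46 to 2.33) in sensitive over resistant, and among cells with one 1.13 (0.942 to 1.35). The level in CD8 cells was 44.7 and 32.6 CPM, in CD4 cells 21.2 and 29.6 CPM and in Foxp3 cells 22.0 and 28.6 CPM. Cells with a Gzmb UMI were the deeper ones (median 4312.5 against 3714 UMIs with sensitive and 5060.5 against 4339.5 with resistant tumors), and the part of depth was not tested.

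Serpine2 was also higher in cells with a Gzmb UMI, in few of them. It had 44.6 CPM with and 10.7 CPM without a Gzmb UMI in the sensitive library, a ratio of 4.16 (3.11 to 5.64), and 24.0 and 5.13 CPM with resistant tumors, a ratio of 4.68 (3.13 to 7.19). In the sensitive library 5 of the 778 cells with a Gzmb UMI held 61.2% of their Serpine2 UMIs, and 4.50% of cells with and 2.54% of cells without a Gzmb UMI had one of Serpine2, where 18.3% and 10.1% had one of Serpinb9. Serpinb6b had 42.5 and 39.7 CPM in the sensitive library, a ratio of 1.07 (0.878 to 1.31), but 59.4 and 25.8 CPM with resistant tumors, a ratio of 2.30 (1.89 to 2.81). Its ratio of sensitive over resistant, 1.00 in the whole T gate, was 0.716 (0.593 to 0.863) among cells with a Gzmb UMI and 1.54 (1.25 to 1.90) among those without. Serpinb6a had ratios of 0.970 (0.875 to 1.07) and 1.16 (1.05 to 1.28).

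Gzmc to Gzmg encode further granzymes of cytotoxic cells, and a split of CD8 cells by them was chosen after the values of the granzyme genes were seen. Of CD8 cells 64 of 1342 and 185 of 1632 had a UMI of Gzmc, Gzmd, Gzme, Gzmf or Gzmg. Serpinb9b was 13.2 CPM in such cells and 1.80 CPM in other CD8 cells of the sensitive library, a ratio of 7.34 (2.56 to 20.03), and 27.5 and 3.29 CPM with resistant tumors, a ratio of 8.36 (5.09 to 14.0). In the resistant library 48 of the 74 Serpinb9b UMIs of CD8 cells were in these 185 cells. Serpine2 was 187 and 19.1 CPM in the sensitive library, a ratio of 9.74 (7.46 to 12.7), and 41.9 and 6.71 CPM with resistant tumors, a ratio of 6.24 (4.32 to 9.06). Serpinb9 was 1.87 and 2.65 times and Serpinb6b 1.74 and 3.31 times as high as in other CD8 cells. Serpinb1a had 0 UMIs in the 64 cells and 2 in the 185 cells. Cells with a Gzmc to Gzmg UMI were the deeper ones (median 6342 against 4029 UMIs with sensitive and 7364 against 4522 with resistant tumors), and the part of depth was not tested.

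The library ratios were also taken within these sets. Within CD8 cells with a Gzmc to Gzmg UMI Serpinb9b was 0.480 (0.196 to 1.02) in sensitive over resistant, and in other CD8 cells 0.547 (0.244 to 1.14), both intervals including 1. Serpine2 was 4.45 (3.29 to 6.06) and 2.85 (2.04 to 4.02) in the same sets, and 2.62 (2.10 to 3.28) in all CD8 cells. In CD8 cells of the sensitive library 5 cells held 52.2% of the Serpine2 UMIs, and the shares of CD8 cells with a UMI were 3.80% and 3.43%. Serpinb9 was 1.17 (0.812 to 1.65) and 1.65 (1.365 to 1.998).

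The proteases that the serpins meet did not all lie on the same side. Of 22 listed proteases and partners, 16 had enough UMIs in the T gate, where 3.26% of all genes were higher and 1.23% lower. Past 2-fold in the sensitive library were 0 higher and 5 lower, with a median ratio of 0.909 beside 1.10 for all genes. The 5 were Gzmc, Gzmd, Gzme, Gzmf and Gzmg, from 0.323 down to 0.0357. Gzma, the target of Serpinb6b, was 0.521, with 661 and 1268 CPM. Gzmb, the target of Serpinb9, was 1.41, Prf1 (perforin) 1.37 and Gzmk 1.86. In NK cells, where 9.1% of all genes were past 2-fold, 8 were measured. Gzmf was higher at 2.13 and 4 were lower, among them Gzma at 0.419 and Gzmc at 0.113.

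Of the other 55 serpin genes 7 had enough UMIs in the T gate, where 3.26% of all genes were past 2-fold higher and 1.23% lower. Of these 7 serpins 3 were higher and 0 lower, with a median ratio of 1.26. Among them Serpina3n was 2.66 and Serpinh1 (the collagen chaperone Hsp47) 2.31, each on 18 to 68 UMIs per library. In fibroblasts, whose marker list was also higher in the sensitive T gate, Serpina3n had 1102 and 835 CPM and Serpinh1 1818 and 1601 CPM, and the part of fibroblast RNA in the T gate values was not tested. The lowest were Serpina3g at 0.749, Serpini1 at 1.02 and Serpina3f at 1.05. In fibroblasts, where 3.96% of all genes were past 2-fold, 11 had enough UMIs. Their median ratio was 1.78 beside 1.06, and 4 were higher and 0 lower. These were Serpinb2 (plasminogen activator inhibitor 2) at 8.10, Serpina3f at 2.80, Serpina3g at 2.56 and Serpina3c at 2.39. Among 14 proteases and partners there, Plau (urokinase), a target of Serpine2, was 2.03 and the sole one past 2-fold higher, and 3 were lower.

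Within fibroblasts no serpin was limited to 1 state. They were split into cells high in Acta2 (smooth muscle actin; 52 and 37 cells), cells with a Pi16 UMI (691 and 564) and cells with neither (87 and 20). Serpinf1 was 1954, 1512 and 2363 CPM in these states with sensitive tumors, and 1724, 1366 and 1865 CPM with resistant tumors. Serpine2 was 336, 387 and 531 CPM, and 205, 237 and 626 CPM. Serpinb6a was 516, 753 and 559 CPM, and 577, 718 and 581 CPM. Serpinb9b was 7.43, 21.0 and 14.8 CPM, and 27.8, 30.3 and 22.7 CPM, so its difference between the libraries was widest in the Acta2 state, on 12 and 42 UMIs. In cells with neither marker the 5 cells with most UMIs held 71.0% and 85.5% of Serpine2.

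Neutrophil Serpinb1a was also split by Ngp and Camp, granule genes of immature neutrophils, and the counts rest on few cells. Of 175 neutrophils of the resistant T cell library 6 had a UMI of Ngp or Camp, and 2 of these 6 held 23 of the 24 Serpinb1a UMIs. In the control tumor 21 of 22 UMIs were in 11 of the 54 such cells among 295 neutrophils (97.0 CPM). In the sensitive tumor all 4 UMIs were in 1 of 18 such cells (80.3 CPM), and in the resistant tumor the sole UMI was in 1 of 4 (71.2 CPM), so of the tumors the control alone had these UMIs in more than 1 cell. The other 241, 196 and 128 neutrophils held 1, 0 and 0 UMIs. The exception was the sensitive T cell library, with 0 UMIs in 2 such cells and 2 in the rest. Over the whole neutrophil gate Serpinb1a was 35.9 CPM in control, 11.2 CPM in sensitive and 3.20 CPM in resistant tumors. The ratios over control were 0.311 (0.0779 to 0.915) and 0.0891 (0.00216 to 0.551), on fewer than 50 UMIs and so without a call. Both hold for the libraries as titled, and the T cell shares above differ in order from those of the paper. Cells with a UMI of Ngp or Camp were 54 of 295 in control, 18 of 214 in sensitive and 4 of 132 in resistant tumors.

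**Figure D4:**
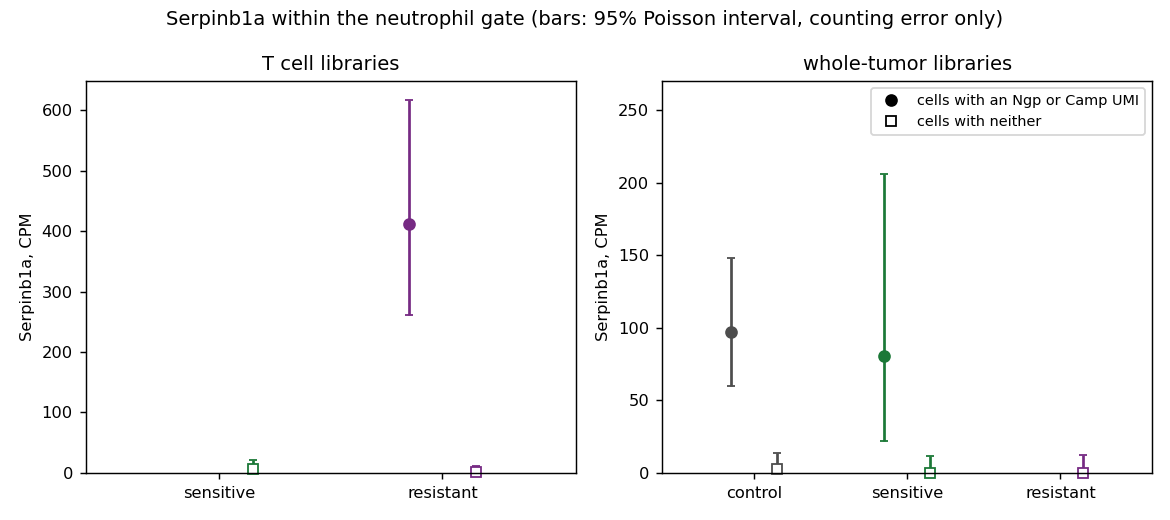
Serpinb1a level (CPM, linear axes that start at 0) in neutrophils with an Ngp or Camp UMI (filled circles) and with neither (open squares), in the T cell and whole-tumor libraries, with bars for the 95% Poisson interval of counting error. The filled points stand at 412 CPM in the resistant T cell library and at 97.0 and 80.3 CPM in the control and sensitive tumors; sets of fewer than 5 cells (sensitive T cell library, resistant tumor) are not drawn.

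The whole-tumor libraries were too small for most other values. No serpin reached 50 UMIs in a neutrophil comparison, where 12.5% (sensitive over control), 8.48% (resistant over control) and 4.97% (sensitive over resistant) of the genes measured were past 2-fold. In the cancer gate 0 of 1 serpin was past 2-fold in resistant over control, beside 6.62% of 3415 genes. This was Serpinb6a, with 231 CPM in 43 cells and 197 CPM in 31 cells, a ratio of 1.17 (0.925 to 1.48). Serpinb9 had 27 UMIs (30.4 CPM) in resistant and 6 UMIs (10.4 CPM) in control cancer cells, a ratio of 2.93 (1.18 to 8.67), and Serpinb6b 16 and 4 UMIs, a ratio of 2.60 (0.839 to 10.7). The 4 cancer cells of the sensitive tumor held 0 UMIs of both. Serpinb9b had 0 UMIs in the neutrophils, macrophages, T cells, cancer cells and fibroblasts (9, 1 and 5 cells) of the control, sensitive and resistant tumors. Its gated UMIs were in NK cells, 4 UMIs in 5 control cells (374 CPM) and 2 UMIs in 3 cells of the resistant tumor. In the T gate of the control tumor (60 cells) Serpinb9 had 6 UMIs and Serpinb6b 5. Serpinf1 had 830 CPM in 9 and 657 CPM in 5 fibroblasts of the control and resistant tumors.

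The genes whose pattern was most like that of each serpin were ranked over 12 points, the 6 gates of both T cell libraries, by Pearson's r of log2(CPM + 10) among about 5445 genes. The points share their libraries and the gates, so r is a description. For Serpinb9 the nearest were 1700025G04Rik (0.985), Gne (0.977) and Serpinb6b (0.961), and for Serpinb6b they were Gne (0.963), Serpinb9 (0.961) and Unc119b (0.956). For Serpinb9b they were Itih5 (0.979), C1qtnf6 (0.946) and Pdlim1 (0.930), and Serpinb9 was not among them. The nearest to Serpinb6a were Lamc1, Rock2 and Pja2 (0.946 to 0.962), to Serpinb1a Stk38, Ginm1 and Hsd11b1 (0.886 to 0.912), to Serpine2 Heg1, Arl1 and Ctps (0.948 to 0.964), and to Serpinf1 Mrc2, Ramp2 and Tspan6 (0.998 to 0.999). Serpinb9 and Serpinb6b were also found in the same T cells. Of T gate cells with a Serpinb6b UMI 29.8% and 34.6% had a Serpinb9 UMI, against 11.0% and 9.46% of the others, at depths that were not matched.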

How the data were processed

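UMI counts per gene and barcode were analysed as the authors deposited them. The authors made them from 10x Genomics 3′ libraries with Cell Ranger on mm10. The headers of the deposited counts give version 6.0.0 for the T cell and 3.0.1 for the whole-tumor libraries. As the gene lists differ, the sets were not compared.

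In the T cell libraries, cells needed 500 genes and a mitochondrial share of 10% or less; in whole tumors, 200 genes and 20% (where all mitochondrial genes were at 0). Lineage gates required at least 2 of 8 markers detected and 2 more than for any of the other 8 lists (1 more between T and NK cells). The T gate also needed a UMI of Cd3d, Cd3e or Cd3g, and the NK gate had to have none. The neutrophil marker Retnlg was absent from the gene lists of the whole-tumor libraries. UMIs were summed per library and gate, with exact Poisson intervals for CPM, exact conditional binomial intervals for ratios and Clopper-Pearson intervals for shares, all 95% and for counting error only. Shares used cells thinned to 1000 UMIs. Doublets were kept in the values given and left out in 1 alternative. Calculations used Python 3.11.15, numpy 2.4.6, scipy 1.17.1 and Biopython 1.88 (alignments), and the ratio step was tested on simulated data. The serpins, markers, lists and subsets were chosen with earlier results of these data known. Genes named are the 7 serpins, the 3 highest and 3 lowest of each list in the T gate, those past 2-fold elsewhere, and the 3 most alike; 1 listed gene and 1 split of T cells are not reported here. Alternatives changed the gate, the filters, the weighting, the scaling, the fold and the UMI minimum. No sample was left out.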

Additional observations from a re-analysis of the deposited data

Results flagged for a closer look

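Serpinb1a lay on opposite sides of 1 in different gates of the T cell libraries. Its ratio of sensitive over resistant was 3.21 in the T gate (204 and 69 UMIs), 15.2 in the NK gate (14 and 1 UMIs, with an interval of 2.31 to 643) and 1.6 in fibroblasts, but 0.125 in neutrophils (2 and 24 UMIs). With 1 library per group the difference between gates was not tested, and 23 of the 24 neutrophil UMIs were in 2 of the 6 cells with an Ngp or Camp UMI.

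Serpinf1 was 1.16 in fibroblasts and 0.652 in the T gate, where 35 of 65 UMIs of the resistant library were in 1 cell. This difference was not tested either.

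Cells that passed the filters but fell into no gate of the sensitive T cell library held higher levels than its gated cells of 3 serpins. In these 257 cells Serpinb9 stood at 74.7 CPM (142 UMIs) against 44.1 CPM in gated cells, Serpinb6b at 68.9 CPM (131 UMIs) against 33.6 CPM, and Serpinb1a at 89.9 CPM (171 UMIs) against 54.3 CPM. In the resistant library the 206 such cells had 30.2 CPM of Serpinb9 against 34.0 CPM in gated cells, 37.7 against 33.6 CPM of Serpinb6b and 36.7 against 28.2 CPM of Serpinb1a, and the intervals overlapped for all 3.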

How the results depend on the processing

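No paired analysis was possible because each group has 1 library. No called ratio reversed under any alternative. In the T gate 2 serpins were past 2-fold, 1 as a mean over cells and 4 at a 1.5-fold call. The share of all genes past 1.5-fold was not taken in any gate, so counts at 1.5-fold have no background beside them. As a mean over cells Serpinb9b was 0.544, Serpinb6b 1.24 and Serpinf1 1.16. Serpinf1 turned above 1 also with at least 3 markers (1.66), with gating by marker UMIs (1.57) and with simulated doublets left out (1.48). Serpinb6a was 0.904 without mitochondrial and ribosomal protein genes and 0.889 over the median ratio, and Serpine2 was 2.46 with no cell filter. Of the alternatives added after seeing the data, leaving out cells with a Gzmc to Gzmg UMI gave 1.62 for Serpinb9, 1.37 for Serpinb6b and 2.36 for Serpine2, leaving out Trdc cells gave 2.10 for Serpinb1a, and leaving out each top cell gave 1.34 for Serpinf1. These causes were not tested beyond the values shown.

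Counts with no minimum of UMIs over both libraries still leave out serpins with 3 UMIs or fewer in each, such as Serpine2 in neutrophils of the sensitive and control tumors (2 and 1 UMIs). The count past 2-fold in macrophages went from 1 to 0 with a mitochondrial limit of 20%. In the cancer gate it went from 1 to 0 with gating by marker UMIs and to 2 at 1.5-fold or with no minimum of UMIs, and in fibroblasts from 0 to 3 at 1.5-fold. From 0 it went to 1 with no minimum in the NK gate, and in the neutrophil gate of the T cell libraries with at least 20 UMIs or no minimum. In whole tumors the neutrophil counts went from 0 to 1 in sensitive over control and in resistant over control with at least 20 UMIs or no minimum, and in sensitive over resistant with no minimum. The cancer count in resistant over control went from 0 to 2 with at least 20 UMIs and to 3 with no minimum. Of the 7 serpins 5 had the higher share of thinned T gate cells in the sensitive library, and 3 when 2 UMIs were required. The other 157 values of these counts and T gate ratios stayed within 1.5 times (counts) or within their counting interval (ratios), and of the single-serpin ratios in other gates 105 stayed within it and 13 moved beyond it. Depth limits Serpinb9b, Serpinb1a in NK cells and neutrophils, and nearly all whole-tumor values.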

Other observations

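Dendritic cells, a gate outside the 6 above with 18 (sensitive) and 34 (resistant) cells in the T cell libraries, held more Serpinb6b per UMI than the NK gate in both libraries, and more Serpinb9 in the sensitive one. Serpinb9 had 473 CPM (394 to 563) and 203 CPM (160 to 253) there, and Serpinb6b 723 CPM (624 to 833) and 577 CPM (503 to 658). The 5 cells with most UMIs held 87.2% and 53.2% of those of Serpinb9 and 77.5% and 43.8% of those of Serpinb6b. Serpinb9b had 0 UMIs in both, and Serpinb6a had 4 and 8 UMIs. The ratio of sensitive over resistant was 2.33 (1.74 to 3.14) for Serpinb9 and 1.25 (1.03 to 1.53) for Serpinb6b, with no call because the gate had fewer than 20 cells in 1 library, and 2 of the 8 dendritic markers were at 0.

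Serpinb2, plasminogen activator inhibitor 2, was higher in the sensitive library in both fibroblasts and macrophages. Fibroblasts had 177 CPM (2339 UMIs) in the sensitive and 21.8 CPM (231 UMIs) in the resistant library, and macrophages 84.8 CPM (183 UMIs) and 3.47 CPM (6 UMIs), ratios of 8.10 (7.08 to 9.32) and 24.4 (11.0 to 67.5). Prtn3 (proteinase 3), a target of Serpinb1a, was 63.0 and 15.6 CPM in macrophages, a ratio of 4.04 (2.66 to 6.35). No replicate library bears on these differences.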
